A study of Mus musculus with 4 samples.

Results

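Which cells of the mouse ovary carry transcripts for exporting or reducing doxorubicin was examined for 7 genes, chosen by symbol from the 32285 genes of the files. They comprise 4 efflux pumps (Abcb1a, Abcb1b, Abcc1 and Abcg2) and 3 carbonyl or aldehyde reductases (Cbr1, Cbr3 and Akr1a1). All 7 were found and are described in every cell class. The study treated 4 groups of prepubertal mice, whose age at treatment is given as postnatal day 25. The control group is labelled PBS/Saline, the second received doxorubicin at 3 mg/kg in 2 weekly doses, the third received the same doses of doxorubicin with recombinant human anti-Müllerian hormone (AMH) at 0.75 mg/kg, and the last received AMH at 0.75 mg/kg alone. Ovaries were taken 4 hours after the second doxorubicin dose, and strain and route of injection are not given in the sources used here. Each group is 1 single-cell library made from pooled tissue of 5 animals, 1 ovary from each, so no spread between animals was measured and a difference between libraries has no replicate check.

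Doxorubicin is an anthracycline that enters cells largely by diffusion and binds DNA and topoisomerase II in the nucleus. P-glycoprotein, which mice encode in Abcb1a and Abcb1b, pumps it out of cells using ATP. The multidrug resistance-associated protein Abcc1 and the smaller transporter Abcg2, which works as a dimer, are also pumps driven by ATP. How well their mouse forms carry doxorubicin was not measured here. The cytosolic enzymes Cbr1, Cbr3 and Akr1a1 reduce the drug's side-chain ketone to the alcohol doxorubicinol. This product binds DNA less tightly and has been linked to toxicity in the heart. Abcb1a and Abcg2 are known as pumps of blood vessel walls, in the brain above all, and Abcb1b is known from secretory and steroid-making tissues.

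The genes lie on 4 chromosomes of the GRCm38 (mm10) build. Abcb1a (chr5:8660077-8748575) and Abcb1b (chr5:8798147-8866315) are neighbours on the plus strand, and Cbr1 (chr16:93605853-93610505) and Cbr3 (chr16:93683215-93690990) are neighbours on the plus strand of chromosome 16. Abcc1 is at chr16:14361558-14475737 (plus), Abcg2 at chr6:58584523-58695676 (plus) and Akr1a1 at chr4:116636510-116651680 (minus). All 7 are annotated as protein-coding. Because 3′ ends were read, the last 500 bases of every protein-coding transcript of each gene were compared with the annotated transcripts of other genes. The comparison used words of 90 bases. None of the words of 6 members occurred in another gene, while 43 of 791 words (5.44%) of Abcb1b occurred in Abcb1a or Abcb4, so a small part of the Abcb1b reads may not be separable from theirs. Annotated genes of uncertain function overlap Abcb1a (Gm42684 on the same strand, Gm42686 antisense) and Abcb1b (7330423F06Rik on the same strand, Gm5106 antisense).

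The promoter bases of 2 members are shown, because the results below turn on how Abcb1b differed between libraries in surface epithelial-like cells and on the low level of Cbr3 in granulosa-like cells. They are the 250 bases before the RefSeq start, on the plus strand of GRCm38.p6, at chr5:8797897-8798146 for Abcb1b and chr16:93682969-93683218 for Cbr3. Capitals mark matches to the motifs searched on both strands.
Abcb1b: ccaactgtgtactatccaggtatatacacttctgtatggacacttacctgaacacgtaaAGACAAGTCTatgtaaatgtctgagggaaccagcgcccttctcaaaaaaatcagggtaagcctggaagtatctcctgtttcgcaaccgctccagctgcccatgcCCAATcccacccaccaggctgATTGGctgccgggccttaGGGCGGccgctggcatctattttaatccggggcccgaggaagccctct
Cbr3: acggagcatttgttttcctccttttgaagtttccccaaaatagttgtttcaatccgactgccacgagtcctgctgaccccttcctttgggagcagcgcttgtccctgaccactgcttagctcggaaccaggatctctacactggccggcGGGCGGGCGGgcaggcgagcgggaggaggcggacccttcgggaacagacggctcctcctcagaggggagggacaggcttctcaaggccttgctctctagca
In Abcb1b the capitals mark, from the 5′ end, a decamer of the p53 response element beginning 191 bases before the start, the CCAAT box on the plus strand at 87 and on the minus strand at 66, and a GC box (GGGCGG) at 48. In Cbr3 they mark 2 overlapping GC boxes, at 101 and 97 bases before the start. Over 32851 promoters of the same length, 7.126% hold such a p53 decamer, 33.85% a CCAAT box and 32.74% a GC box. The core of the antioxidant response element, TGACNNNGC, which 10.16% of promoters hold, has no match in either window. A match is a description of letters and shows no binding.

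After filtering, 28465 cells were kept, between 6045 and 7976 per library, with a median of 10663 to 15110 UMIs per cell. A UMI is a short random tag, so that copies of 1 captured transcript count as 1. The deposited libraries held between 138647495 and 178279122 UMIs, and 103 of 33536 distinct barcodes occurred in more than 1 library. Cells were clustered on genes that excluded the 7 members, and 13 classes were named from marker genes, written here with "-like". Of 96 markers 90 were highest in their own class, but the same markers named the clusters, so the count is no independent check. Of 8 blood endothelial markers 5 were highest there, while Kdr, Egfl7 and Tie1 were highest in lymphatic endothelial-like cells. In total 7 classes held at least 50 cells in each library, which were granulosa-like, theca-like, stroma-like, smooth muscle-like, pericyte-like, blood endothelial-like and macrophage-like cells. Lymphatic endothelial-like, T or NK lymphocyte-like, surface epithelial-like and erythroid-like cells held at least 20 cells in each library, while dendritic-like and oviduct-type epithelial-like cells fell to 10 and 1 in the doxorubicin library. No cluster of oocytes was found. In theca-like cells the AMH libraries lay mostly in a cluster led by Lhcgr and Prss35 (75.3% of theca-like cells in doxorubicin+AMH and 81.0% in AMH), while the control and doxorubicin libraries lay mostly in one led by Cyp17a1 (79.6% and 72.6%), so theca-like values of the AMH contrasts compare different clusters.

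Levels are UMIs of a gene per 1000000 UMIs (CPM) summed over the cells of a class in a library, and 4 values in a row follow the order control, doxorubicin, doxorubicin+AMH, AMH. Means over libraries are given with the SD over the 4 libraries, which here spans 4 treatments. Intervals are 95% and exact, and they cover counting error only. To ask which classes differ in a member, the class sums of the 4 libraries were tested with edgeR's quasi-likelihood test, library as a block, each of the 7 large classes against the mean of the other 6, with p-values adjusted over 18103 genes. Of 49 member-class pairs, 15 were higher and 18 lower at an adjusted p below 0.05. Over all genes 27.8% of gene-class pairs were higher and 23.2% lower, so the members' counts are of the order that these classes show for any gene, and the interest lies in the sizes and the classes.

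Abcb1a was concentrated in blood vessel cells. Blood endothelial-like cells had 465 CPM in control, 514 after doxorubicin, 466 after doxorubicin+AMH and 410 after AMH. Every one of these lay above every library of the other 10 classes with at least 20 cells per library. These cells were 1.54% of all kept cells and held 69.3% of all Abcb1a UMIs (interval 68.2 to 70.4). T or NK lymphocyte-like cells came next, at 85.6, 122, 91.9 and 59.8 CPM in the same order of libraries. The other large classes lay at a mean of 0.668 CPM in theca-like, 1.75 in granulosa-like, 4.18 in macrophage-like, 4.19 in pericyte-like, 6.78 in smooth muscle-like and 7.56 in stroma-like cells. Against the mean of the other large classes, blood endothelial-like cells were higher by 7.13 on the log2 scale (SE 0.18, edgeR adjusted p = 2.93e-21), and granulosa-like and theca-like cells were lower by -2.29 (SE 0.32, adjusted p = 6.86e-07) and -3.69 (SE 0.42, adjusted p = 3.78e-08).

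Abcg2, which exports urate and porphyrins, was highest in the same cells. Blood endothelial-like cells had 317 CPM in control, 299 after doxorubicin, 293 after doxorubicin+AMH and 224 after AMH. Lymphatic endothelial-like cells had 83.7, 62.6, 90.4 and 86.4 CPM, below each blood endothelial-like value and above each pericyte-like value (34.5, 59.97, 30.3 and 41.3 CPM). Pericyte-like, stroma-like and smooth muscle-like cells followed with overlapping ranges, at means of 41.5, 36.1 and 31.3 CPM. Abcg2 in blood endothelial-like cells was 3.55 higher on the log2 scale than the mean of the other large classes (SE 0.12, edgeR adjusted p = 1.34e-18). Macrophage-like cells were lower by -1.30 (SE 0.24, adjusted p = 4.91e-05), as were granulosa-like cells by -0.98 (SE 0.15, adjusted p = 2.36e-06) and theca-like cells by -1.70 (SE 0.16, adjusted p = 2.11e-09). Unlike Abcb1a, the pump was spread over many cells: blood endothelial-like cells held 18.7% of its UMIs, granulosa-like cells 32.2% and stroma-like cells 28.7%.

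Abcb1b, the second mouse P-glycoprotein gene, had another pattern. Surface epithelial-like cells, which cover the ovary, had 179 CPM in control, 431 after doxorubicin, 274 after doxorubicin+AMH and 210 after AMH, and T or NK lymphocyte-like cells had 266, 280, 259 and 280 CPM. The ranges of these 2 classes overlapped and lay above those of the other 9 classes with at least 20 cells per library. Macrophage-like cells had 60.1, 68.5, 52.5 and 51.7 CPM, and blood endothelial-like cells 27.9, 29.6, 43.7 and 84.2, again overlapping. Granulosa-like cells stood at a mean of 1.94 CPM (SD 0.176, n = 4 libraries). Surface epithelial-like cells were 1.06% of kept cells and held 35.4% of Abcb1b UMIs over the 4 libraries together (interval 34.2 to 36.5). By library they held 599 of 1837 Abcb1b UMIs in control, 1317 of 2532 after doxorubicin, 158 of 1086 after doxorubicin+AMH and 339 of 1371 after AMH, so the doxorubicin library weighs most in the pooled share. Among the large classes, Abcb1b was higher in macrophage-like cells by 2.82 on the log2 scale (SE 0.21, edgeR adjusted p = 1.02e-11) and in blood endothelial-like cells by 2.20 (SE 0.19, adjusted p = 4.02e-10), and lower in granulosa-like cells by -3.01 (SE 0.23, adjusted p = 1.93e-11) and theca-like cells by -1.0004 (SE 0.20, adjusted p = 0.000181).

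With the 11 classes of at least 20 cells per library in the test, a setting added after the values were seen, Abcb1b was 5.04 higher on the log2 scale in surface epithelial-like and 5.09 higher in T or NK lymphocyte-like cells (SE 0.20 and 0.27). In that setting the lower calls of Abcb1b in granulosa-like, theca-like and pericyte-like cells did not pass, each at an edgeR adjusted p of 1. The fit gave these 3 contrasts no usable standard error, and the cause was not tested. Abcb1b was at 0 UMIs in all 4 erythroid-like sums, which enter every Abcb1b contrast of this setting, the 5.04 and 5.09 included. The lower calls of Abcc1 in stroma-like (adjusted p = 0.194), pericyte-like (0.126) and blood endothelial-like cells (0.267), of Cbr1 in macrophage-like (0.456) and of Akr1a1 in blood endothelial-like cells (1) did not pass there either. Over all genes 26.6% of pairs were higher and 15.6% lower in that setting. Lymphatic endothelial-like cells were higher in Abcg2 by 1.47 (SE 0.17). Abcb1a was 3.97 higher in T or NK lymphocyte-like cells (SE 0.35).

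Abcc1, which carries drugs joined to glutathione, was the most even of the pumps. Its means in the 7 large classes ran from 14.4 CPM in pericyte-like to 32.0 CPM in macrophage-like cells (24.0, 43.0, 31.7 and 29.1 CPM). Granulosa-like cells held 20.8 CPM (SD 3.35, n = 4) and 47.7% of all Abcc1 UMIs, near their 48.3% share of all UMIs. Macrophage-like cells were 0.86 higher on the log2 scale (SE 0.13, edgeR adjusted p = 4.47e-06), smooth muscle-like cells 0.45 higher (SE 0.10, adjusted p = 0.000306) and stroma-like cells lower by -0.41 (SE 0.10, adjusted p = 0.00119). The stroma-like call was lost with 11 classes, and the lower calls in pericyte-like and blood endothelial-like cells were lost there and under other settings too. Without the doxorubicin library the adjusted p was 0.0621 in pericyte-like cells, and without the AMH library it was 0.107 in blood endothelial-like cells. With doublets left in it was 0.0553 in pericyte-like cells. Oviduct-type epithelial-like cells, with 1 cell in the doxorubicin library, had 97.0, 50.7 and 68.0 CPM in control, doxorubicin+AMH and AMH.

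**Figure D1:**
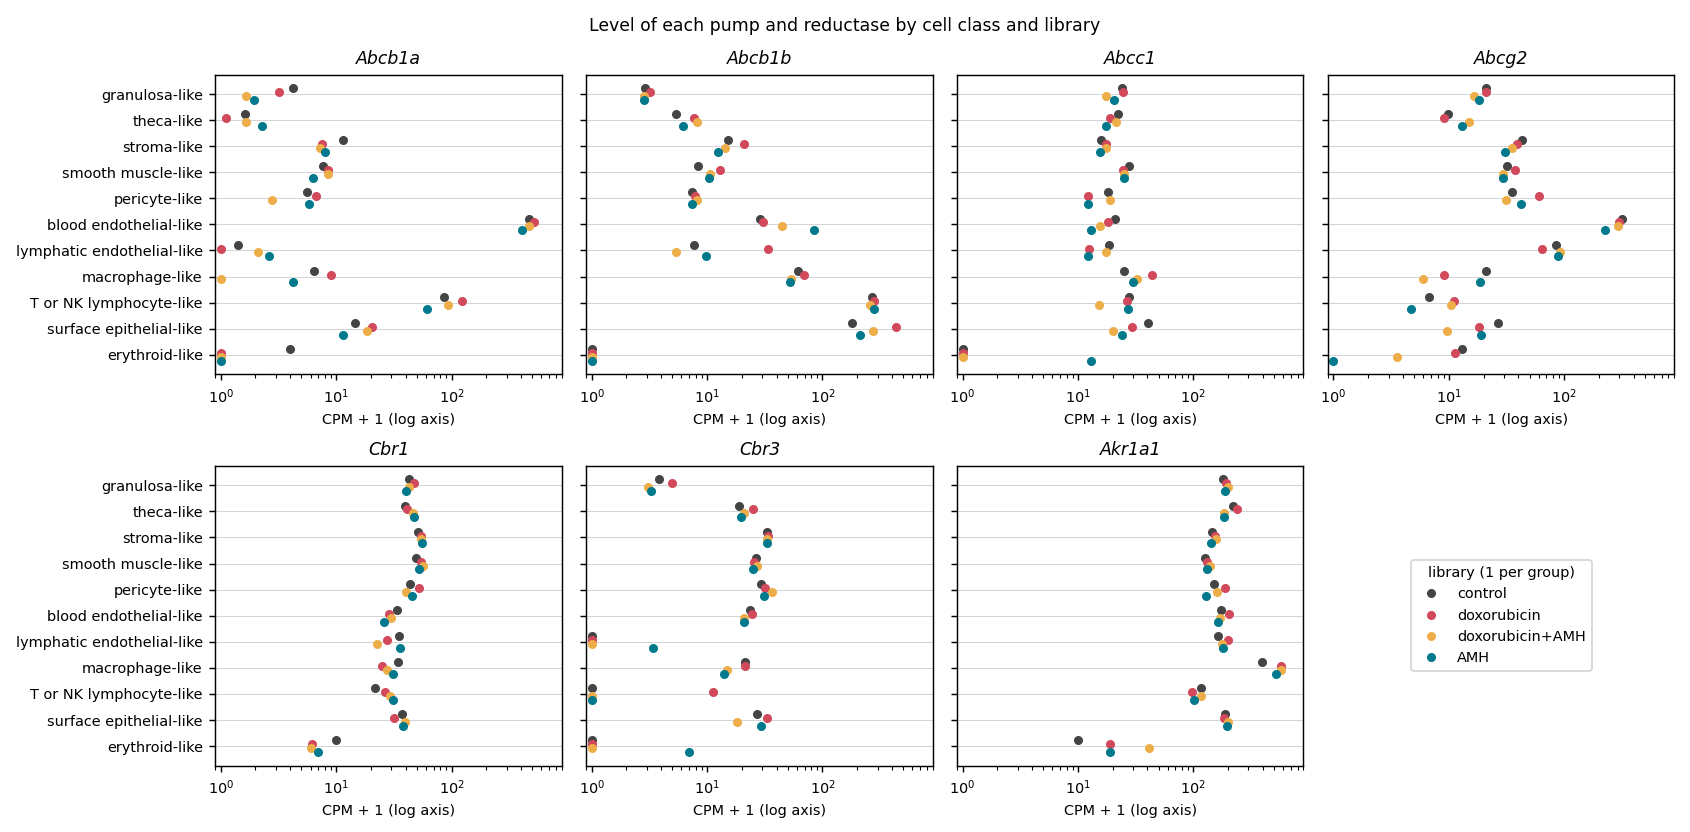
Level of each pump and reductase (CPM + 1, log axis) in the 11 classes with at least 20 cells in every library, 1 point per library. Abcb1a reaches 410 to 514 CPM in blood endothelial-like cells, Abcb1b is highest in surface epithelial-like and T or NK lymphocyte-like cells, Cbr3 is low in granulosa-like cells and Akr1a1 is highest in macrophage-like cells.

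Akr1a1, the aldehyde reductase that also takes part in ascorbate synthesis in mice, was found in every large class and was highest in macrophage-like cells. Those cells had 389 CPM in control, 571 after doxorubicin, 568 after doxorubicin+AMH and 522 after AMH, each above every other class with at least 20 cells per library. The other large classes lay between a mean of 131 CPM in smooth muscle-like and 206 in theca-like cells, with 189 CPM in granulosa-like cells (SD 8.59, n = 4). In the class test macrophage-like cells were 1.71 higher on the log2 scale (SE 0.07, edgeR adjusted p = 2.54e-17), and smooth muscle-like, pericyte-like and stroma-like cells were lower by -0.61, -0.55 and -0.48 (SE 0.08, 0.09 and 0.08). Both smaller calls depended on the setting. The lower level in blood endothelial-like cells (-0.26, SE 0.08) had an adjusted p of 0.0589 without the doxorubicin+AMH library, and the higher level in theca-like cells (0.25, SE 0.07) one of 0.0871 without the control library and 0.0774 with a marker gate in place of clusters.

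Cbr1, which reduces quinones and prostaglandins too, differed little between the large classes. Stroma-like cells had 49.97, 53.3, 53.9 and 53.9 CPM and smooth muscle-like cells 48.7, 53.4, 55.7 and 51.1, with granulosa-like cells at 41.5, 46.0, 42.1 and 39.0. Macrophage-like and blood endothelial-like cells were lowest of the large classes, with means of 28.7 and 28.6 CPM. Outside the large classes, oviduct-type epithelial-like cells had 85.4, 69.0 and 76.7 CPM in control, doxorubicin+AMH and AMH. That leaves aside the 1 cell of the doxorubicin library. Erythroid-like cells had a mean of 6.30 CPM. The class test called smooth muscle-like (0.47, SE 0.07, edgeR adjusted p = 3.73e-06) and stroma-like cells (0.41, SE 0.07, adjusted p = 2.54e-05) higher and blood endothelial-like (-0.68, SE 0.09, adjusted p = 7.72e-07) and macrophage-like cells (-0.45, SE 0.10, adjusted p = 0.000841) lower, the last of which was lost with 11 classes (adjusted p = 0.456). A higher call in theca-like cells (0.23, SE 0.07) had an adjusted p of 0.0614 without the doxorubicin+AMH library and 0.0818 without the AMH library.

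Cbr3, the near neighbour of Cbr1, was nearly lacking in granulosa-like cells. They had 2.86, 3.99, 2.10 and 2.27 CPM, against 32.3, 33.0, 32.2 and 32.2 CPM in stroma-like and 28.1, 30.5, 35.7 and 30.2 CPM in pericyte-like cells. Each granulosa-like value lay below each value of the other 6 large classes. Their level was -3.12 on the log2 scale against the mean of the other large classes (SE 0.11, edgeR adjusted p = 1.27e-17), and stroma-like cells were 1.02 higher (SE 0.08, adjusted p = 3.49e-10). Pericyte-like (0.76), smooth muscle-like (0.67) and theca-like cells (0.39) were also higher, with SEs of 0.15, 0.09 and 0.09. Lymphatic endothelial-like cells had 3 Cbr3 UMIs in all 4 libraries together, all in the AMH library, whereas blood endothelial-like cells had 20.03 to 23.4 CPM. Oviduct-type epithelial-like cells had 29.6, 18.3 and 20.5 CPM in control, doxorubicin+AMH and AMH, leaving aside the 1 cell of the doxorubicin library.

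Within classes the clusters also differed, given here over all libraries together and with no test. Among the 10 granulosa-like clusters, the pooled level of Abcb1a was at most 7.7 CPM and those of Abcb1b and Cbr3 at most 8.8, while single libraries could be higher (Abcb1a 12.0 CPM in control in the cluster led by Cntn4 and Cdh12). Abcc1 ranged there from 5.9 CPM in a cluster almost all of the AMH library to 38.7 CPM in the cluster led by Cntn4 and Cdh12. Akr1a1 and Cbr1 were both lowest, at 87.1 and 11.8 CPM, in the granulosa-like cluster led by Spef2 and Unc5c. Of the stroma-like clusters the one led by Dpt and Clec3b was highest in Abcb1b in each library, at 35.3, 92.0, 34.0 and 25.9 CPM, so its pooled 48.2 CPM leans on the doxorubicin library. A cluster with Enpep and Col15a1 among its leading genes had 4.99, 3.65, 7.60 and 3.09 CPM, the lowest in each library but doxorubicin+AMH. Abcb1a was highest in each library in the stroma-like cluster led by Frem1 and Pdgfra, at 40.5, 23.7, 19.5 and 19.0 CPM.

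To compare how many cells carried a pump or a reductase, every cell was thinned to 2000 UMIs, leaving out shallower cells. A UMI of any pump was then seen in 75.1% of blood endothelial-like cells (SD 3.29, n = 4 libraries), 42.1% of T or NK lymphocyte-like (SD 18.7) and 36.0% of surface epithelial-like cells. It was seen in 7.30% of granulosa-like and 6.83% of theca-like cells. Erythroid-like cells, used as a low reference, gave 1.33%. Their pump UMIs were 9 of Abcg2, 2 of Abcc1, 1 of Abcb1a and 0 of Abcb1b. Abcg2 is known in red cell precursors, and whether these UMIs came from the cells or from free RNA was not tested. Without thinning, the shares were 93.5%, 65.3%, 74.7%, 49.7%, 46.1% and 4.61% in the same order. Any reductase was seen in 56.0% of macrophage-like cells (SD 6.22), 43.9% of surface epithelial-like, 40.7% of theca-like, 36.0% of granulosa-like, 34.7% of blood endothelial-like, 20.6% of T or NK lymphocyte-like and 6.38% of erythroid-like cells, or 75.2%, 85.6%, 92.6%, 85.4%, 84.3%, 47.3% and 12.53% unthinned. Thinning left out between 3 pericyte-like and 458 granulosa-like cells of the large classes, and 43 erythroid-like cells.

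A pump and a reductase together were seen in 25.9% of thinned blood endothelial-like cells (SD 5.06) and 13.5% of surface epithelial-like cells (SD 1.75), against 2.61% of granulosa-like cells. Unthinned, the shares were 82.7%, 68.4% and 47.4%, so the difference between classes depends strongly on the depth at which it is read. In blood endothelial-like cells Abcb1a was seen in 55.3% (SD 3.41), Abcg2 in 48.3% (SD 2.52) and both in 29.8% (SD 2.39). Outside that class, both were seen together in at most 2.08% of the thinned cells of any class in any library. Unthinned, both were seen in 81.5% of blood endothelial-like, 10.8% of surface epithelial-like and 3.66% of T or NK lymphocyte-like cells.

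**Figure D2:**
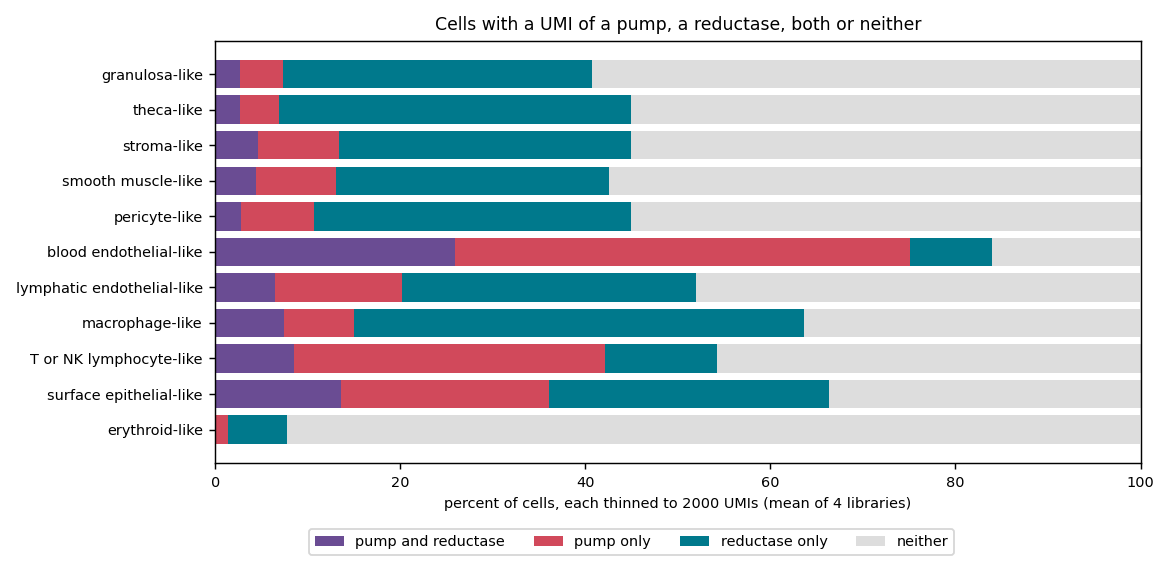
Percent of cells, each thinned to 2000 UMIs, with a UMI of a pump and a reductase, a pump only, a reductase only or neither, as the mean of the 4 libraries. Blood endothelial-like cells have a pump in 75.1% of cells, granulosa-like cells in 7.30%, and erythroid-like cells in 1.33%.

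The genes whose class pattern was most like each member were sought among 9706 genes, by the Pearson correlation of log2(CPM + 5) over 28 points, 7 classes in each of 4 libraries. The points share library and class, so these values are descriptions. Abcb1a was closest to Bcl6b (0.984), Gm16070 (0.983) and Kdr (0.982), the vascular endothelial growth factor receptor 2 gene. Lymphatic endothelial-like cells were not among the 7 classes, and there Kdr was highest of all classes while Abcb1a had a mean of 0.780 CPM. Abcg2 was closest to Stard13 (0.973), Lrrc8a (0.972) and Prkd2 (0.961). Abcb1b was closest to Sdcbp (0.940), Vav3 (0.939) and Tmcc3 (0.939). Abcc1 had weaker likenesses, to Golph3l (0.829), Prune2 (0.829) and Anxa4 (0.826). Cbr1 was closest to Rab34 (0.943), Peg3 (0.920) and Rcn3 (0.916), Cbr3 to Nr4a2 (0.959), Sh3pxd2a (0.947) and Cnrip1 (0.932), and Akr1a1 to Ubl5 (0.954), Prr13 (0.954) and Mapkapk3 (0.952). Between members the correlation was 0.932 for Abcb1a and Abcg2, 0.540 for Abcb1a and Abcb1b, and 0.202 for Cbr1 and Cbr3.

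Whether the treatments moved these genes was asked with 2 pairs of contrasts. Doxorubicin / control and doxorubicin+AMH / AMH share no library, nor do AMH / control and doxorubicin+AMH / doxorubicin. With 1 library per group no treatment difference was tested, and a member was counted as past the fold where the log2 ratio of CPM + 5 lay beyond 0.5 in the same direction in both contrasts of a pair, with a mean of at least 20 CPM. Of 49 member-class pairs in the large classes, 29 reached that mean. None of the 29 was past the fold upward or downward in either pair. Over all genes the background was low as well: 0.366% of gene-class pairs were past the fold upward and 0.643% downward in both doxorubicin contrasts, and 1.27% upward and 2.22% downward in both AMH contrasts. At these shares fewer than 1 of 29 pairs would be counted in each direction, so the 0 is read as no departure from the background.

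For the vascular pump Abcb1a, the ratio in blood endothelial-like cells was 1.11-fold (interval 1.03 to 1.19) for doxorubicin / control and 1.14-fold (1.02 to 1.27) for doxorubicin+AMH / AMH. Over all kept cells its level was 16.0 CPM in control, 14.9 after doxorubicin, 7.05 after doxorubicin+AMH and 8.94 after AMH, so both AMH libraries lay below both others. Blood endothelial-like cells were 2.14% and 2.05% of kept cells in control and doxorubicin, against 0.916% and 1.05% in doxorubicin+AMH and AMH. Their part in the whole-library level was not tested. In granulosa-like cells Abcb1a stood at 3.20, 2.22, 0.648 and 0.935 CPM, also lower in both AMH libraries, at a level under the filter. The granulosa-like clusters were unevenly split: the one led by Cntn4 and Cdh12, highest of them in Abcb1a over all libraries, held 341, 283, 147 and 219 cells, and 3 others came almost wholly from 1 library. Within the Cntn4 and Cdh12 cluster Abcb1a was at 12.0, 6.70, 3.06 and 4.21 CPM.

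Abcg2 in blood endothelial-like cells was lowest in the AMH library, 0.708-fold of control (interval 0.636 to 0.786), a log2 ratio of -0.49 that lies just inside the fold limit. The second AMH contrast, doxorubicin+AMH / doxorubicin, was 0.980-fold (0.859 to 1.12). In pericyte-like cells Abcg2 was 1.74-fold (1.12 to 2.71) for doxorubicin / control but 0.733-fold (0.373 to 1.40) for doxorubicin+AMH / AMH. With each cell weighted equally the first was 0.33 on the log2 scale, against 0.72 as summed. In a stroma-like cluster with Grm7 and Dcn among its leading genes, it stood at 53.4 CPM in control and 52.8 in doxorubicin, against 34.0 in doxorubicin+AMH and 27.9 in AMH, past the fold downward in both AMH contrasts (-0.83 and -0.57). For the class as a whole those log2 ratios were -0.46 and -0.13. Macrophage-like cells had 19.8, 8.06, 4.96 and 17.4 CPM of Abcg2 (33, 6, 5 and 27 UMIs), under the filter but lower in both doxorubicin libraries. Doxorubicin / control was 0.407-fold there (0.139 to 0.983) and doxorubicin+AMH / AMH 0.284-fold (0.0854 to 0.748).

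Abcb1b in blood endothelial-like cells came nearest to the fold rule. AMH / control gave a log2 ratio of 1.44, and doxorubicin+AMH / doxorubicin gave 0.49, just inside the limit, while doxorubicin+AMH / AMH gave -0.87. Of the 189 Abcb1b UMIs in the AMH library's 83 blood endothelial-like cells, 1 cell held 86. That cell showed 1 of 9 surface epithelial markers and 0 of 8 T or NK lymphocyte markers. Without the cell that held most Abcb1b UMIs in each library, levels were 25.0, 26.7, 36.7 and 47.4 CPM, and the ratios for AMH / control and doxorubicin+AMH / AMH were 0.81 and -0.33. The gene passed the rule upward in both AMH contrasts under several other settings, among them doublets left in and equal weight per cell, but not without those cells. The share of blood endothelial-like cells with an Abcb1b UMI was 25.1% in control, 22.6% after doxorubicin, 26.7% after doxorubicin+AMH and 36.1% after AMH.

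Of the reductases, Akr1a1 in macrophage-like cells was 1.47-fold (interval 1.30 to 1.66) for doxorubicin / control and 1.09-fold (0.976 to 1.21) for doxorubicin+AMH / AMH. With each cell weighted equally the first was 0.34 on the log2 scale, against 0.55 as summed. AMH / control was 1.34-fold (1.21 to 1.49), so control was the lowest of the 4 libraries and the other 3 lay close together. Abcc1 in the same cells was 1.79-fold (1.09 to 2.92) for doxorubicin / control and 1.09-fold (0.671 to 1.76) for doxorubicin+AMH / AMH, and the first fell to 0.30 on the log2 scale with each cell weighted equally, from 0.73. In granulosa-like cells Akr1a1 and Cbr1 ratios lay between -0.11 and 0.13 on the log2 scale in all 4 contrasts. Abcc1 there was 23.3, 23.6, 16.5 and 19.7 CPM, with the highest values in control and doxorubicin, and doxorubicin+AMH / doxorubicin was 0.699-fold (0.645 to 0.757). These class values mix the unevenly split granulosa-like clusters. Within the Cntn4 and Cdh12 cluster, highest in Abcc1, the levels were 39.5, 42.8, 29.4 and 36.2 CPM.

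**Figure D3:**
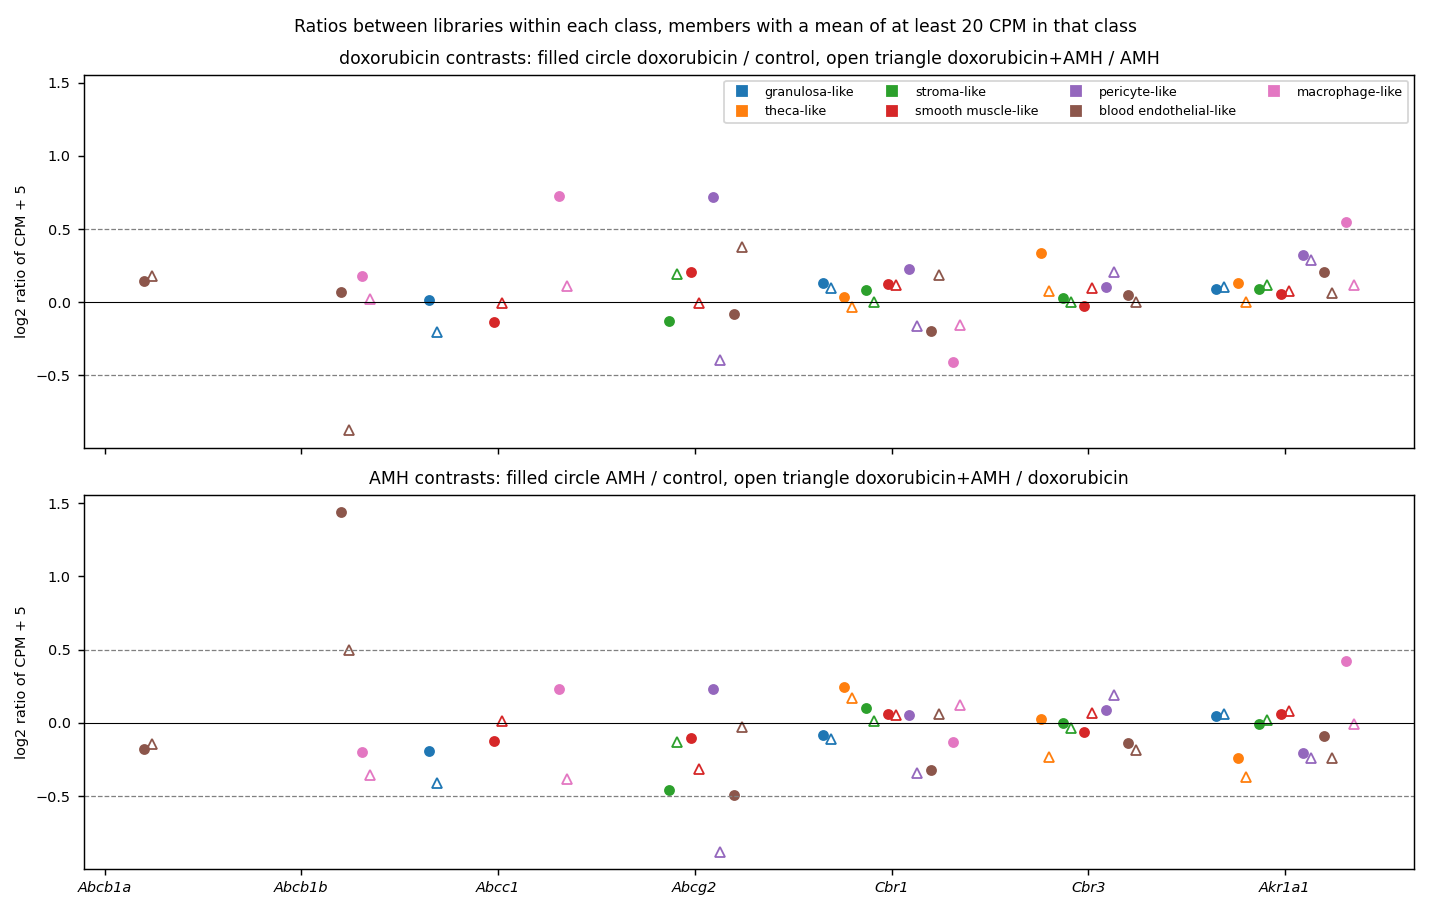
Log2 ratio of CPM + 5 between libraries for each member within each of the 7 large classes, for the 29 pairs with a mean of at least 20 CPM. Dashed lines mark the fold limit of 0.5, and no pair has both of its symbols beyond the same line in either panel.

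The surface epithelial-like cells fell below 50 cells in 1 library, so they stood outside that count, although with T or NK lymphocyte-like cells they had the highest Abcb1b levels. Abcb1b in the class was 2.41-fold (interval 2.18 to 2.66) for doxorubicin / control and 1.31-fold (1.08 to 1.58) for doxorubicin+AMH / AMH. The class consisted of 2 clusters. One was led by C3 and Slpi, with 599 CPM in control, 950 in doxorubicin and 358 in AMH, and only 3 cells in doxorubicin+AMH. The other was led by Lgals7 and Upk3b, with 64, 55, 35 and 31 cells. The C3 cluster was 39.6%, 40.9%, 7.89% and 52.3% of the class in these libraries, so the class values mix 2 levels in different proportions.

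Within the Lgals7 and Upk3b cluster Abcb1b was at 24.5 CPM in control, 140 after doxorubicin, 245 after doxorubicin+AMH and 55.6 after AMH. Both doxorubicin libraries lay above both others. Doxorubicin / control was 5.71-fold (interval 4.30 to 7.68) and doxorubicin+AMH / AMH was 4.42-fold (3.11 to 6.37). Each AMH library also lay above its counterpart without AMH, by 2.26-fold (1.498 to 3.40) for AMH / control and 1.75-fold (1.41 to 2.17) for doxorubicin+AMH / doxorubicin. The UMIs were spread over cells: 17 of 64, 33 of 55, 19 of 35 and 14 of 31 cells had at least 1, and without the cell holding most of them the levels were 20.3, 131, 214 and 52.4 CPM. The cell holding most showed 9 of 9 surface epithelial markers in control and in doxorubicin and 8 in AMH, but 4 in doxorubicin+AMH. The cluster's median depth was also lowest in that library, at 8456 UMIs against 15866 to 20964 in the others, and whether its make-up differed there was not tested. Cdkn1a, a p53 target that halts the cell cycle, stood in these cells at 171, 1426, 298 and 34.1 CPM. Cdkn1a too was higher in both doxorubicin libraries, but it was highest in doxorubicin, whereas Abcb1b was highest in doxorubicin+AMH.

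The fold rule was then applied within 25 clusters with at least 20 cells in every library, an alternative added after the values were seen. Of 91 member-cluster pairs with a mean of at least 20 CPM, 2 were past the fold upward in both doxorubicin contrasts, over a background of 1.05% of gene-cluster pairs, and 0 downward, over 1.68%. For both AMH contrasts 3 were upward, over 1.64%, and 1 downward, over 2.20%. The doxorubicin pairs were Abcb1b in the Lgals7 cluster and Akr1a1 in erythroid-like cells, where the latter rests on 3 to 16 UMIs per library. The upward AMH pairs were these same 2 and Cbr1 in a small macrophage-like cluster with 0 to 7 UMIs per library, and the downward one was Abcg2 in the stroma-like cluster with Grm7 and Dcn. Such counts are near the background. The Abcb1b ratios in the Lgals7 cluster were singled out after the values were seen. Their size was not set against that of all genes in the cluster, so they are given as a description.

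In stroma-like cells as a whole Abcb1b was at 14.3, 20.05, 13.2 and 11.5 CPM, under the filter. Its highest stroma-like level was in the cluster led by Dpt and Clec3b, at 35.3 CPM in control, 92.0 after doxorubicin, 34.0 after doxorubicin+AMH and 25.9 after AMH. Doxorubicin / control was 2.60-fold (interval 2.11 to 3.22) and doxorubicin+AMH / AMH 1.31-fold (0.910 to 1.88), so the doxorubicin library was the highest and the interval of the second contrast included 1. Of its 290 UMIs there, 1 cell held 79, and without that cell the level was 67.4 CPM. Cdkn1a in this cluster was at 130, 1603, 284 and 160 CPM. The share of cells with an Abcb1b UMI was 23.3% in control, 39.9% after doxorubicin, 14.3% after doxorubicin+AMH and 15.4% after AMH.

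**Figure D4:**
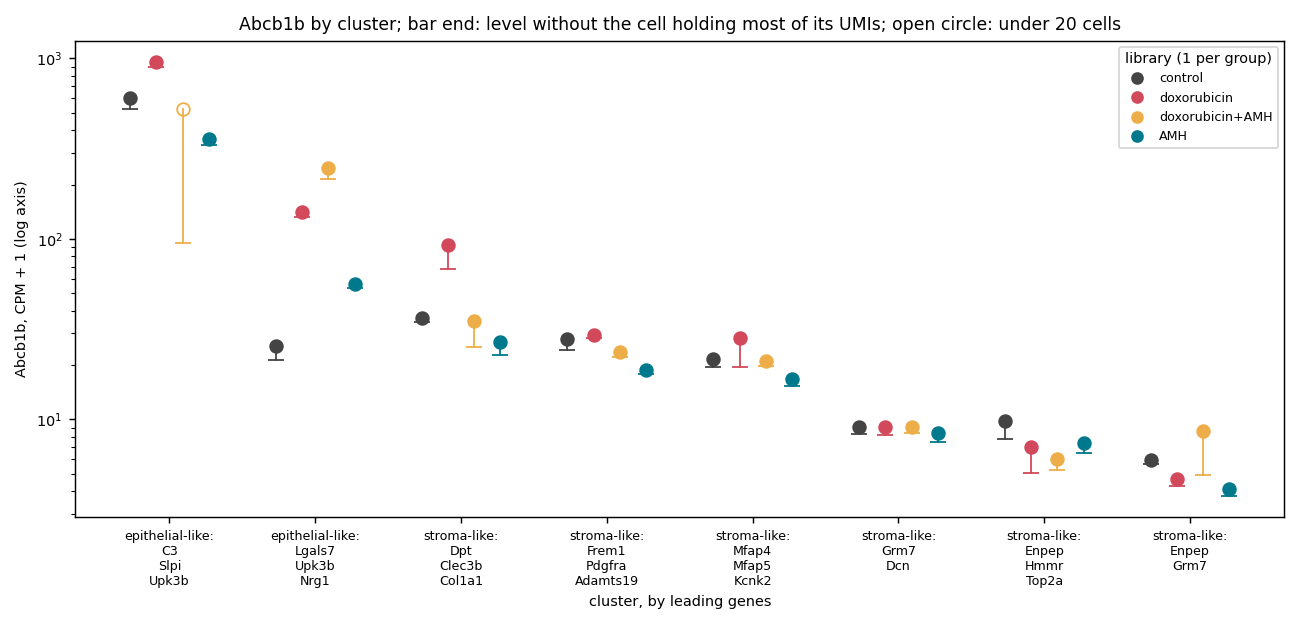
Abcb1b level (CPM + 1, log axis) by library in the 2 surface epithelial-like and 6 stroma-like clusters, named by leading genes. The end of each line gives the level without the cell holding most Abcb1b UMIs, and in the Lgals7 cluster the doxorubicin (140 CPM) and doxorubicin+AMH (245 CPM) libraries lie above control (24.5) and AMH (55.6).

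Other genes that handle the drug were taken as fixed lists, and the counts concern the 7 large classes. Of 13 other export pumps, 7 reached 20 CPM in some class, giving 25 gene-class pairs, and 0 were past the fold in both contrasts of either pair. Abcc4, an exporter of cyclic nucleotides and prostaglandins, was highest in blood endothelial-like cells, at 145, 162, 136 and 119 CPM. Of 6 uptake carriers 2 reached the mean, the carnitine carrier Slc22a5 at 69.0 CPM in theca-like and the organic anion carrier Slco1a4 at 36.6 CPM in blood endothelial-like cells, and 0 of their 6 pairs were past the fold.

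Of 17 other carbonyl reductases, 8 gave 36 pairs. The highest were Akr1c14, a 3-alpha-hydroxysteroid dehydrogenase, at 216 CPM in granulosa-like cells, and the aldose reductase Akr1b3 at 150 CPM in theca-like cells. The single pair past the fold was Akr1c14 in theca-like cells, upward in both AMH contrasts (21.4, 24.2, 37.6 and 35.5 CPM). Of 9 quinone reductases, enzymes that can drive redox cycling of the drug's quinone ring, 8 gave 40 pairs. Past the fold were Cyb5r3 (258, 240, 114 and 117 CPM) and Ndufs1 (61.1, 62.9, 38.3 and 40.1 CPM), both in theca-like cells and downward in both AMH contrasts. All 3 of these theca-like pairs fall where the AMH libraries and the others lie in different clusters, and over all genes 5.55% of theca-like pairs were upward and 8.43% downward in both AMH contrasts.

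Of 10 targets of NRF2, the factor that switches on antioxidant genes, 8 gave 32 pairs. Of these 32 pairs 2 were past the fold upward in both doxorubicin contrasts, against 0.366% of all gene-class pairs. Both lay in macrophage-like cells, where 7 of the listed genes reached the mean and 1.24% of all genes were past the fold. The cystine carrier Slc7a11 stood there at 20.4 CPM in control, 179 after doxorubicin, 78.3 after doxorubicin+AMH and 31.0 after AMH, and the glutathione reductase Gsr at 59.5, 114, 86.3 and 53.6 CPM. In both genes the doxorubicin libraries lay above the other libraries. In both AMH contrasts Slc7a11 was upward in theca-like cells, and Gsr in pericyte-like and Gclm in theca-like cells were downward, where the background for pericyte-like cells was 2.48%. The highest levels were those of Gclc, the catalytic subunit for glutathione synthesis, at 363 CPM in theca-like cells, and of the heme oxygenase Hmox1, at 224 CPM in macrophage-like cells.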

How the data were processed

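The deposited files hold UMI counts per gene and cell for 4 libraries, as the authors deposited them, not normalized, with version 7.0.0 of Cell Ranger named in the file headers. The names mm10, R 4.2.0 and Seurat 4.1.0 appear in the submitters' processing notes, with no role given. Barcodes under 1000 UMIs or above 20% mitochondrial UMIs were dropped, and the highest Scrublet scores were removed at 0.8% per 1000 deposited cells. Libraries were clustered together without batch correction on 2000 variable genes that left out the members and other listed genes (scanpy 1.11.5, scikit-learn 1.9.0, 30 components, 20 neighbours, leidenalg 0.10.2 at resolution 1.0), giving 33 clusters. A cluster took a class name when at least 3 markers and 60% of a list lay 1 log2 unit above the median cluster. Counts were summed per class and library and tested with edgeR 4.0.16 (R 4.3.3), after a check on simulated data. DESeq2 1.42.0 served as an alternative. Ratio intervals are exact conditional binomial and level intervals exact Poisson. The members, gene lists and tests were chosen with earlier results of these data known. Named were all members, and from each other list the 2 genes with the highest level and any gene past the fold, except for some not reported here. Promoters came from RefSeq (GRCm38.p6, 6 of 7 members matched) and positions from GENCODE.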

Additional observations from a re-analysis of the deposited data

How the results depend on the processing

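Of the 33 member-class pairs called higher or lower, 27 kept their call under all 14 alternatives on the same 7 classes, and 0 changed direction. The 6 others (Abcb1b and Abcc1 in pericyte-like, Abcc1 and Akr1a1 in blood endothelial-like, Akr1a1 and Cbr1 in theca-like cells) lost it under 1 to 9 of them, and Abcb1b in pericyte-like cells lost it without the control, doxorubicin or doxorubicin+AMH library (adjusted p 0.122, 0.124 and 0.136 by edgeR). The number of higher pairs ran from 14 to 15 and of lower pairs from 16 to 17 when 1 library was left out. With the 11 classes of at least 20 cells, chosen after seeing the data, 25 pairs were higher, among them pairs of the added classes and, from the same 7 classes, Cbr1 in granulosa-like (adjusted p 0.0351 by edgeR) and Cbr3 in blood endothelial-like (3.32e-06) and macrophage-like cells (0.000304), while 8 of the 33 calls were lost. The number past the fold upward in both AMH contrasts rose from 0 to 1 (Abcb1b in blood endothelial-like cells) at 10% mitochondrial UMIs, at 500 UMIs, with doublets left in, with each library clustered alone, at resolution 2.0, with cells weighted equally, with median-of-ratios scaling, with a pseudocount of 1 and at a log2 limit of 0.25. It rose to 2 with a marker gate in place of clusters, and to 1 (Akr1a1 in erythroid-like cells) in the classes of at least 20 cells. Upward in both doxorubicin contrasts the number rose to 1 at a limit of 0.25 (Akr1a1 in pericyte-like cells) and to 1 (Akr1a1 in erythroid-like cells) in the classes of at least 20 cells. Downward it rose to 1 with no filter on low CPM (Abcg2 in macrophage-like cells). Without the cell holding most UMIs of a gene, all 4 numbers were 0. No paired analysis was possible because each treatment group has 1 library, so that the groups compared share only 1 replicate number. The class test took library as a block. The depth limits the smaller classes most: 3 UMIs equal 2.73 CPM in the doxorubicin+AMH blood endothelial-like sum, 15.3 CPM in the doxorubicin T or NK lymphocyte-like sum and 17.9 CPM in the AMH erythroid-like sum.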

Other observations

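Oocytes formed no cluster. At least 3 oocyte markers were seen in 3 barcodes in control, 6 after doxorubicin, 1 after doxorubicin+AMH and 14 after AMH. For this count the lower limit on UMIs was applied, but not the mitochondrial limit or the doublet removal. Some of the barcodes may therefore lie outside the kept cells. These 24 barcodes held 2164783 UMIs in all. They carried 426 UMIs of Akr1a1, 138 of Cbr1, 75 of Abcc1, 53 of Abcb1b, 42 of Abcg2, 15 of Abcb1a and 13 of Cbr3. Of the 53 Abcb1b UMIs, 46 came from the 6 barcodes of the doxorubicin library. No level of oocytes is drawn from them, since the barcodes may hold other cells as well.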
